A study of Mus musculus with 6 samples.

Results

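Ccl17, Ccl20 and Ccl22 are 3 chemokine genes among the 17369 genes of a single-cell table of mouse T helper 9 (Th9) cells, and they were followed by their gene columns across libraries, genotypes and the authors' cell clusters. Cblb-/- cells (knockout, 3 libraries, called D, E and F, 14503 cells) were compared with wild-type cells (3 libraries, called A, B and C, 12755 cells). In both groups splenic naive CD4+ T cells had been cultured for 48 h with human TGF-beta at 3 ng/ml, IL-4 at 20 ng/ml and an antibody to interferon-gamma at 20 ug/ml, and were then purified with CD4 beads, so every sample had received the same Th9 culture. Cblb encodes CBL-B, a ubiquitin ligase that restrains T cell activation. The labels give no strain, age or sex, do not describe the Cblb allele and do not say whether each sample came from its own mouse, so the spread behind each p-value is that of these libraries and may be technical.

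Chemokines are small secreted proteins that draw cells along a gradient. CCL17 and CCL22 are the ligands of the receptor CCR4, which is carried by type 2 helper cells, regulatory T cells and other T cells; they are best known as products of dendritic cells and macrophages, where IL-4 acting through STAT6 raises them, and activated T cells can make them too. CCL20 is the ligand of CCR6, a receptor of Th17 cells, B cells and dendritic cells, and is made by epithelia and by Th17 cells, often downstream of NF-kB. Ccl17 and Ccl22 are neighbours on mouse chromosome 8 and Ccl20 lies on chromosome 1.

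On mm10 with GENCODE M21, Ccl22 (ENSMUSG00000031779) runs from 94745590 to 94751699 on the plus strand of chromosome 8. Ccl17 (ENSMUSG00000031780) follows on the same strand from 94810453 to 94812036, with 58.8 kb between the genes. Ccl20 (ENSMUSG00000026166) runs from 83116766 to 83119167 on the plus strand of chromosome 1. The stretches just before the gene starts are shown because the 3 genes were all higher in knockout libraries, and 2 motifs were looked up on both strands in the 250 bases before each RefSeq start: GGG and CC with 5 bases of any kind between them, a loose form of the NF-kB site, and TTC and GAA with 4 bases of any kind between them, the spaced palindrome of STAT6. They come from RefSeq on GRCm38.p6, plus strand, and capitals mark matches on either strand; the Ccl22 stretch ends at the earlier GENCODE start. Ccl17 is chr8:94810203-94810452, Ccl20 is chr1:83116516-83116765 and Ccl22 is chr8:94745434-94745589.
Ccl17: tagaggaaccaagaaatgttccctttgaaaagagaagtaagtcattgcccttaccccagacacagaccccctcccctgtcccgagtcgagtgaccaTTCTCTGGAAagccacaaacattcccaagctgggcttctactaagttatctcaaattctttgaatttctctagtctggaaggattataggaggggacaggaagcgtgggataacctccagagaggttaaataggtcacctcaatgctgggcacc
Ccl20: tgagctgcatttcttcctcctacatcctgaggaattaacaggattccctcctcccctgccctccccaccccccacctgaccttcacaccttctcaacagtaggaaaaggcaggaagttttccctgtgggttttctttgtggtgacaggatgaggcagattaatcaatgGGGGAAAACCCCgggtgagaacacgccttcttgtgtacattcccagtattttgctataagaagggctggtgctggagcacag
Ccl22: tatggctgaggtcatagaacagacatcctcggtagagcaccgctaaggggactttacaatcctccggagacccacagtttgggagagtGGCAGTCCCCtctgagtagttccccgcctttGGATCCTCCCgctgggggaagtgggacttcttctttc
Ccl17 held 1 match of the STAT motif, ending 145 bases before its start, and no match of the NF-kB motif in this window. Ccl20 held overlapping matches of the NF-kB motif in a single run that ends 71 bases before its start. Ccl22 held 2 separate matches of the NF-kB motif, on the minus strand, ending 59 and 28 bases before the GENCODE start. Among 32841 promoter windows of 250 bases, 45.8% held the NF-kB motif and 5.9% the STAT motif, so an NF-kB match of this kind is common. A match of letters is not a binding site, and its absence from a window of this length says nothing about the factor.

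The table held counts corrected by sctransform for the depth of each cell. Levels are given in ppm, the sum of a gene's corrected counts in a library per 1000000 of the library's sum. Libraries held 3423 to 5666 cells with a median raw depth of 35573 to 39628 UMIs per cell (38050 over knockout and 38122 over wild-type cells), and 76 barcodes occurred in more than 1 library, with 0 to 10 shared by any pair. The targeted gene checked the labels: Cblb stood at 15.0 to 18.4 ppm in knockout and 30.9 to 32.6 ppm in wild-type libraries, and the 3' tags may lie outside the deleted part. All 8 T cell markers were in the table, with summed levels of 2209 to 2400 ppm in knockout and 2399 to 2480 ppm in wild-type libraries, so T cell transcripts were plentiful in every library.

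All 3 chemokine genes were higher in knockout than in wild-type libraries, and the size of the rise differed widely between them. Ccl22, a CCR4 ligand, had 14.5, 9.59 and 7.94 ppm in knockout libraries D, E and F, against 0.216, 0.262 and 0.266 ppm in wild-type libraries A, B and C. Its knockout mean of 10.7 ± 3.39 ppm was 43.0 times the wild-type mean of 0.248 ± 0.028 ppm (SD, n = 3 each). The lowest knockout library lay far above the highest wild-type library, and the wild-type values rest on 32 to 46 corrected counts each. The log2 difference was 3.19 (SE 0.18, limma across 8475 genes, Benjamini-Hochberg adjusted p = 0.000103). Ccl22 reached the minimum mean of 5 ppm only through its knockout level.

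Ccl17, the other CCR4 ligand, had 3.99, 6.74 and 6.79 ppm in knockout libraries D, E and F, against 1.41, 0.872 and 1.18 ppm in wild-type libraries A, B and C. The groups did not overlap, and library D was the lowest of the knockouts for Ccl17 while it was the highest for Ccl22. The means were 5.84 ± 1.6 ppm in knockout and 1.15 ± 0.27 ppm in wild-type libraries (SD, n = 3 each), a ratio of 5.06. Since Ccl17 averaged under 5 ppm, its test comes from the fit with a minimum of 0.1 ppm and a pseudocount of 0.1, where the log2 difference was 2.23 (SE 0.23, limma across 13109 genes, adjusted p = 0.0011). In the same fit Ccl22 stood at 4.91 (SE 0.21, limma adjusted p = 5.28e-05) and Ccl20 at 1.25 (SE 0.13, limma adjusted p = 0.00102).

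Ccl20, the CCR6 ligand, was the most abundant of the 3 as a share of all counts, with 57.4, 66.6 and 76.5 ppm in knockout libraries D, E and F, against 33.0, 24.7 and 26.6 ppm in wild-type libraries A, B and C. The means were 66.8 ± 9.56 ppm in knockout and 28.1 ± 4.35 ppm in wild-type libraries (SD, n = 3 each), a ratio of 2.38. The log2 difference was 1.22 (SE 0.13, limma, adjusted p = 0.0013). For comparison, 24.4% of the genes of that fit passed the threshold, 11% of all as higher in knockout and 13.4% as lower; in the fit with the lower minimum 23% passed and 12.5% were higher. Permuting the 6 libraries between the genotypes (exact, two-sided) gave p = 0.1 for each gene, the smallest that 3 against 3 libraries allow.

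**Figure D1:**
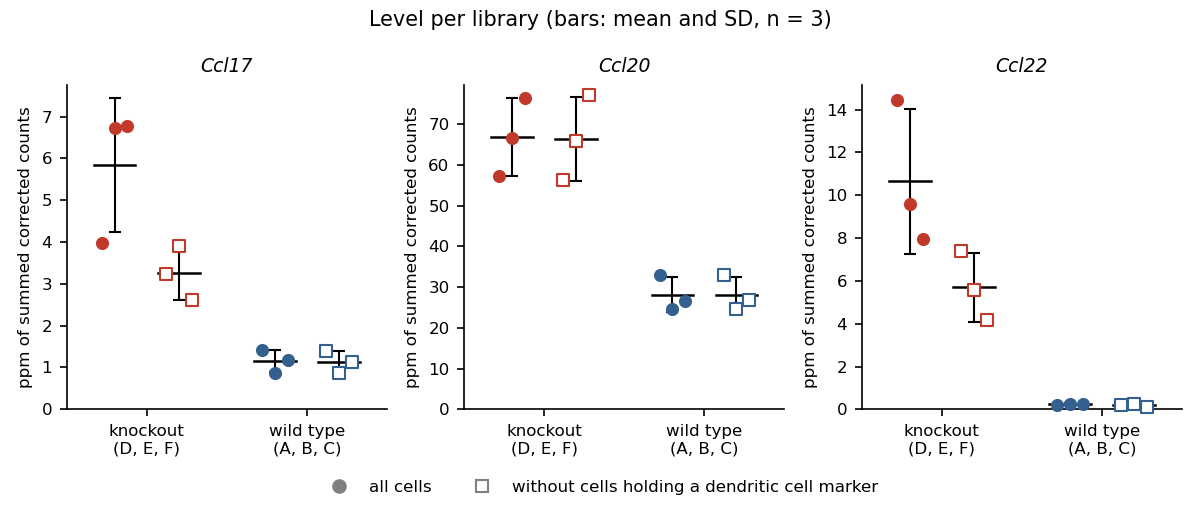
Level of Ccl17, Ccl20 and Ccl22 in ppm of summed corrected counts, with 1 point per library and the mean and SD of 3 libraries; filled circles are all cells and open squares leave out cells holding a dendritic cell marker. The knockout libraries sit above all wild-type libraries in every panel, also without those cells.

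The 3 genes were carried by very different numbers of cells. At least 1 corrected count of Ccl20 was found in 23.1%, 26.3% and 32.3% of cells in knockout libraries D, E and F, against 14.6%, 12.0% and 13.3% in wild-type libraries A, B and C. For Ccl22 the shares were 4.62%, 2.84% and 2.70% of knockout cells, against 0.641%, 0.233% and 0.351% of wild-type cells. For Ccl17 they were 3.45%, 3.07% and 2.35% of knockout cells, against 1.51%, 1.0% and 1.82% of wild-type cells. Each gene was thus found in more knockout cells, with no overlap between the groups (exact two-sided permutation test, p = 0.1 for each, 0.1 after adjustment over the 9 shares compared). How many of all genes separate the libraries in this way was not computed, so the separation is not shown to be particular to these genes. No deposited cluster is known to lack these transcripts, so a background share from RNA free in the droplets was not available, and of the positive cells 39.9% to 46.8% for Ccl20, 54.0% to 74.6% for Ccl17 and 59.6% to 80.0% for Ccl22 held exactly 1 count.

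At a minimum of 10 counts the ratio of the genotype means was larger for Ccl22 (39.3, against 8.29 at 1 count) and Ccl17 (7.11, against 2.04), and for Ccl20 it was 2.21, against 2.05. Ccl22 reached it in 22, 37 and 26 cells of knockout libraries D, E and F, and in 0, 1 and 1 cells of wild-type libraries A, B and C. As shares that is 0.592% ± 0.097 of knockout and 0.015% ± 0.013 of wild-type cells (SD, n = 3 each), and the 0 in library A allows up to 0.0769% (3 cells of 3902, counting error only). Ccl17 reached it in 9, 25 and 15 knockout cells and in 1, 2 and 3 wild-type cells, or 0.327% ± 0.099 and 0.046% ± 0.020 (SD, n = 3 each). Ccl20 reached it in 209, 359 and 371 knockout cells and in 135, 106 and 127 wild-type cells, or 6.43% ± 0.38 and 2.90% ± 0.51 (SD, n = 3 each). The groups did not overlap for any of the 3 (exact permutation test, p = 0.1), and here too the share of all genes that do so was not computed. Values of 100 or more of Ccl22 occurred in 13 knockout cells and 0 wild-type cells, of Ccl17 in 5 and 0, and of Ccl20 in 37 and 8. Of those 13 Ccl22 cells, 10 held a defining dendritic cell marker, described next, all 13 held Trac, a T cell receptor gene, and 11 each held Cd3e and Cd4. Their median raw depth was 70550 UMIs, against 37978 in knockout cells at 0 of Ccl22.

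**Figure D2:**
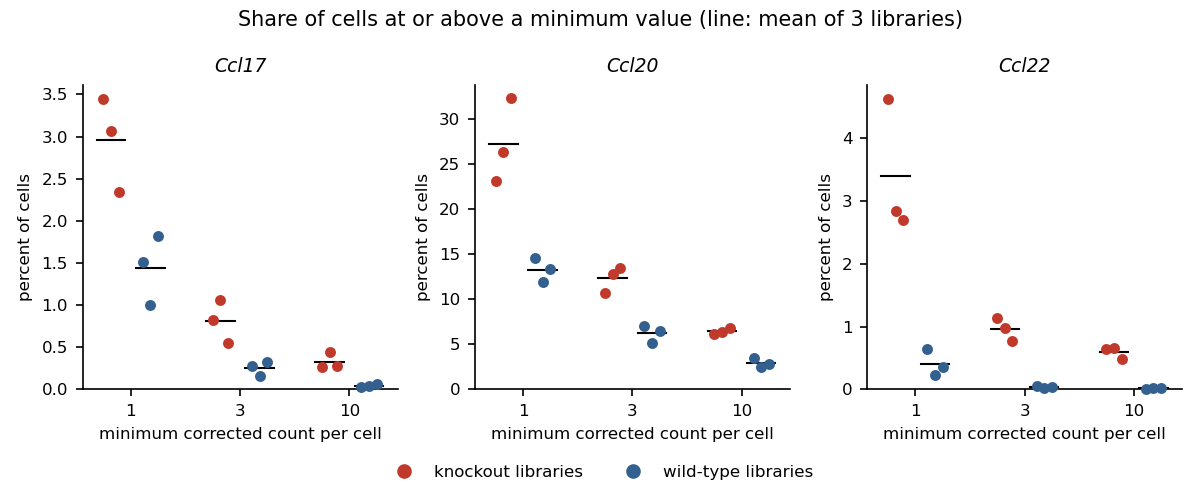
Percent of cells at or above a corrected count of 1, 3 or 10 per cell for each gene, with 1 point per library and a line at the mean of 3 libraries. At 10 counts the knockout libraries lie at 0.480% to 0.653% for Ccl22, against 0% to 0.0233% in wild-type libraries.

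Ccl17 and Ccl22 counts were concentrated in a handful of cells. The 10 highest cells of a library held 57.8% to 81.2% of its Ccl17 count in knockout and 52.5% to 74.8% in wild-type libraries. For Ccl22 they held 52.4% to 69.9% in knockout and 53.1% to 100% in wild-type libraries, and for Ccl20 11.5% to 15.3% in knockout and 19.6% to 23.3% in wild-type libraries. The highest Ccl22 cell, in library F, held 431 counts of Ccl22 and 403 of Ccl17, together with 25 of H2-Aa, 16 of Fscn1 and 3 of Trac. The highest of library D held 228 counts of Ccl22, 87 of Il13 and 5 of Fscn1 and none of Ccl17. The highest of library E held 162 counts of Ccl22 and none of the dendritic cell markers. The highest wild-type cell, in library B, held 33 counts of Ccl22, 6 of Cd3e and 11 of Trac.

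Cells with at least 1 of 5 dendritic cell markers were also more frequent in knockout libraries, and the markers differed in this. Of 13 dendritic cell markers 10 were in the table, none at 0 in all libraries, with summed levels of 187 to 227 ppm in knockout and 117 to 139 ppm in wild-type libraries, mostly from Cd74, H2-Ab1 and Batf3, which T cells in culture also express. The 5 defining markers measured (Fscn1, H2-Aa, Itgax, Flt3 and Xcr1) summed to 1.29 to 1.82 ppm in knockout and 0.201 to 0.471 ppm in wild-type libraries, with Flt3 at 0 in library B; Clec9a, Cd209a and Siglech were not analysed here. Zbtb46, another of the 10, was not among the defining markers. Fscn1 was found in 1.077% to 1.496% of cells in knockout and 0.256% to 0.3295% in wild-type libraries. Flt3 did not overlap either (0.212% to 0.425%, against 0% to 0.0659%). H2-Aa (0.229% to 1.11%, against 0.1395% to 0.436%) and Itgax (0.0876% to 0.229%, against 0.0659% to 0.103%) overlapped. So did Xcr1 (0.0924% to 0.512%, against 0.198% to 0.359%). The shares of single markers were not tested. At least 1 of the 5 was found in 2.80%, 2.19% and 2.25% of the cells of D, E and F, against 1.18%, 0.767% and 0.879% of the cells of A, B and C. Cells with such a marker held 50.4%, 43.1% and 48.9% of the Ccl22 count in D, E and F and 21.1%, 43.2% and 62.3% of the Ccl17 count, but 1.54% to 4.52% of the Ccl20 count. In wild-type libraries A, B and C they held 15.6%, 0% and 56.5% of Ccl22, 1.44%, 0.699% and 5.39% of Ccl17 and 0.282% to 1.24% of Ccl20.

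Without those cells the 3 genes were still higher in knockout libraries. Ccl22 was then 7.38, 5.58 and 4.15 ppm in D, E and F, against 0.184, 0.264 and 0.117 ppm in A, B and C. Ccl17 was 3.24, 3.92 and 2.62 ppm, against 1.40, 0.873 and 1.12 ppm, and Ccl20 was 56.3, 65.7 and 77.0 ppm, against 33.0, 24.7 and 26.8 ppm. In the fit with a minimum of 0.1 ppm the log2 differences were 4.33 for Ccl22 (SE 0.25, limma adjusted p = 8.88e-05) and 1.45 for Ccl17 (SE 0.19, limma adjusted p = 0.00256) against 4.91 and 2.23 over all cells. For Ccl20 it was 1.21 in its own fit (limma adjusted p = 0.00162). The choice to leave those cells out was made after the data were seen.

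Most high cells carried at least 1 count of T cell receptor transcripts whether or not they held a dendritic cell marker. Among the 85 knockout cells with at least 10 counts of Ccl22, 31 held a defining dendritic cell marker, 11 of 22 in D, 15 of 37 in E and 5 of 26 in F. The marker was Fscn1 in 29 of the 31, alone or with others. Cd3e was found in 29 of those 31 cells and in 54 of the other 54, and Trac in 30 and in 53. The median Ccl22 value was 69 counts in cells with a marker and 27 in cells without, at median raw depths of 43924 and 47963.5 UMIs. Csf2, the gene of GM-CSF, was found in 20 of the 31 and in 42 of the 54, and Il13, a type 2 cytokine, in 14 and in 34. Among the 49 knockout cells with at least 10 counts of Ccl17, 17 held a defining dendritic cell marker, and 45 of the 49 held Cd3e. No doublet caller was run, since raw counts per gene were not used here. A pair of cells in a droplet, 1 cell with both programmes, and a dendritic cell with T cell RNA free in its droplet cannot be told apart.

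The authors' 7 clusters differed in which chemokine they held. Clusters are cited by number, and a level between clusters is a description, since the clusters were made from the same genes. Ccl20 was concentrated in cluster 4, which held 893 knockout and 365 wild-type cells and 76.6% of the knockout and 72.2% of the wild-type Ccl20 count. Every cell of cluster 4 held Ccl20, at a mean of 30.0, 31.1 and 34.7 corrected counts per cell in D, E and F, against 27.0, 27.1 and 26.3 in A, B and C, while the means of clusters 0 to 3 and 5 lay between 0.105 and 2.49. Ccl22 and Ccl17 were spread over several clusters. Of the knockout Ccl22 count, 44.6% was in cluster 0, 22.9% in cluster 1, 19.3% in cluster 2 and 11.7% in cluster 3, beside 1.40% in cluster 4. Of the knockout Ccl17 count, 24.2% was in cluster 0, 24.8% in cluster 1 and 31.6% in cluster 2.

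Ccl20 rose in knockout libraries in 5 of the 6 clusters with at least 50 cells in each library, numbers 0 to 5. The log2 difference was 0.65 in cluster 0, 0.996 in cluster 1, 1.74 in cluster 2, 1.21 in cluster 3 and 0.25 in cluster 4 (limma within each cluster, adjusted p of 0.0209, 0.0105, 0.000581, 0.00529 and 0.0198). Genes higher in knockout made up 9.06%, 9.22%, 8.39%, 4.54% and 5.33% of those tested in these clusters, and 4.9% in cluster 5. In clusters 1 and 2 the wild-type means of Ccl20 were 3.14 and 4.51 ppm. It reached the minimum mean of 5 ppm there only through its knockout level. The call in cluster 0 was lost without library B or F (0.49 and 0.57), that in cluster 1 without A (0.93), and that in cluster 4 without A, B, C or F (0.186 to 0.255). In cluster 2 the levels were 14, 15.1 and 22.7 ppm in D, E and F, against 6.35, 4.06 and 3.12 ppm in A, B and C. In cluster 4 they were 779, 814 and 905 ppm in D, E and F, against 705, 708 and 688 ppm in A, B and C, a difference that was small beside its level although the groups did not overlap. In cluster 5 the log2 difference of 0.85 did not pass (SE 0.37, limma adjusted p = 0.193), and libraries D, E and F, at 20.6, 65.7 and 40.3 ppm, overlapped with A, B and C, at 25.2, 11.8 and 29.3 ppm; without library D it passed (1.28, limma adjusted p = 0.0396).

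The all-cell difference of Ccl20 was smaller once the clusters were weighted. When each cluster was given the same weight in every library, the log2 difference was 0.41 (limma adjusted p = 0.00877), against 1.22 without the weights. Cluster 4 made up 5.70%, 6.23% and 6.37% of the cells of D, E and F, and 3.49%, 2.60% and 2.57% of the cells of A, B and C; since Ccl20 itself marks that cluster, the weights hold part of the Ccl20 difference fixed by construction, and the size of the cluster was not tested between genotypes. The test of the difference itself, each cluster against the mean of the others, gave -0.84 for Ccl20 in cluster 4 (SE 0.15, limma, unadjusted p = 0.000683, adjusted p = 0.174), 0.95 in cluster 2 (adjusted p = 0.108) and -0.36 in cluster 0 (adjusted p = 0.215). None passed, and in these fits 0% of the genes passed in clusters 0, 3, 4 and 5, 0.0477% in cluster 1 and 0.806% in cluster 2. At an unadjusted limma p under 0.05, 991, 763, 1055 and 652 genes differed in clusters 0, 3, 4 and 5.

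Ccl22 passed as higher in knockout libraries in clusters 1 and 2, where, as in cluster 3, it reached the minimum mean of 5 ppm only through its knockout level. In cluster 1 its levels were 11.3, 8.18 and 12.6 ppm in D, E and F, against 0.219, 0.557 and 0.0649 ppm in A, B and C, higher by 3.19 on the log2 scale (SE 0.18, limma adjusted p = 3.9e-05). In cluster 2 they were 9.05, 29.5 and 6.82 ppm, against 0.34, 0 and 1.07 ppm, higher by 3.25 (SE 0.43, limma adjusted p = 0.000754). In cluster 0, where the mean stayed under 5 ppm and no test was made, they were 13.5, 8.46 and 6.22 ppm, against 0.236, 0.0192 and 0.0361 ppm. Cluster 3 was uneven, with 186, 0.285 and 44.4 ppm in D, E and F, against 0, 0 and 1.73 ppm in A, B and C, and did not pass (log2 difference 3.99, SE 1.40, limma adjusted p = 0.113); without library E it was 6.04 (limma adjusted p = 0.000171). In cluster 3 of D 5 cells held its 432 counts of Ccl22, 1 of them 207 and another 166. In clusters 4 and 5 the knockout means were 2.44 and 0.543 ppm, against 0.128 and 0.124 ppm in wild type, with no overlap. These rest on 78 knockout and 2 wild-type counts in cluster 4, and on 7 and 4 counts in cluster 5. The separation in cluster 5 is thus one of single counts. How many of all genes separate the libraries in this way within a cluster was not computed, so these separations are not shown to be particular to Ccl22.

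A few cells carried much of this. In cluster 1 of library F a single cell held 95.1% of the Ccl22 count, and without cells holding a dendritic cell marker that cluster gave 4.92, 4.96 and 0.451 ppm in D, E and F, against 0.206, 0.560 and 0.0653 ppm in A, B and C, so the groups then overlapped. In cluster 0 the same step left 4.97, 6.91 and 4.70 ppm in knockout, against 0.152, 0.0194 and 0.0183 ppm in wild-type libraries, without overlap. In cluster 2 it left 1.68, 6.90 and 4.17 ppm of Ccl22 in D, E and F, against 0.348, 0 and 0.987 ppm in A, B and C, without overlap and with a mean too low for the test. For all levels left by this step, the share of all genes that separate the libraries was not computed. Ccl17 passed in cluster 2, where it too reached the minimum only through its knockout level, with 8.80, 29.8 and 6.34 ppm in D, E and F, against 0.34, 0 and 3.22 ppm in A, B and C (log2 difference 2.87, SE 0.55, limma adjusted p = 0.0055). Without cells holding a marker its levels there were 6.76, 11.3 and 5.87 ppm, against 0.348, 0 and 3.26 ppm, without overlap and again too low for the test. In cluster 4 its level was 2.93 ± 1.44 ppm in knockout and 9.76 ± 12.6 ppm in wild-type libraries (SD, n = 3 each), with 75.4% of the count of library A in 1 cell, and the log2 difference of -0.80 did not pass (SE 0.58, limma adjusted p = 0.413) and was 0.18 without library A. Ccl17 in cluster 5 did not pass either (1.56, SE 0.79, limma adjusted p = 0.254), and did without library D (2.58, limma adjusted p = 0.0235). It reached the minimum mean in cluster 5 only through its knockout level, and in cluster 4 only through its wild-type level. Only 7 knockout cells of cluster 5 held Ccl17, with 70.8% of the count of E and 99.1% of that of F in 1 cell each. No Ccl17 or Ccl22 difference between clusters passed the test of the difference. Cluster 6 held 24 cells, too few for a test. Of mast cell and basophil markers Cpa3 was found in 14 of them, Ms4a2 in 12, and Kit and Fcer1a in 6 each, and of T cell genes Cd3d in 22, Trac in 21 and Il9 in 21. A cell of this cluster held 326 counts of Ccl17, together with 39 of H2-Aa, 6 of Fscn1 and 1 of Trac.

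**Figure D3:**
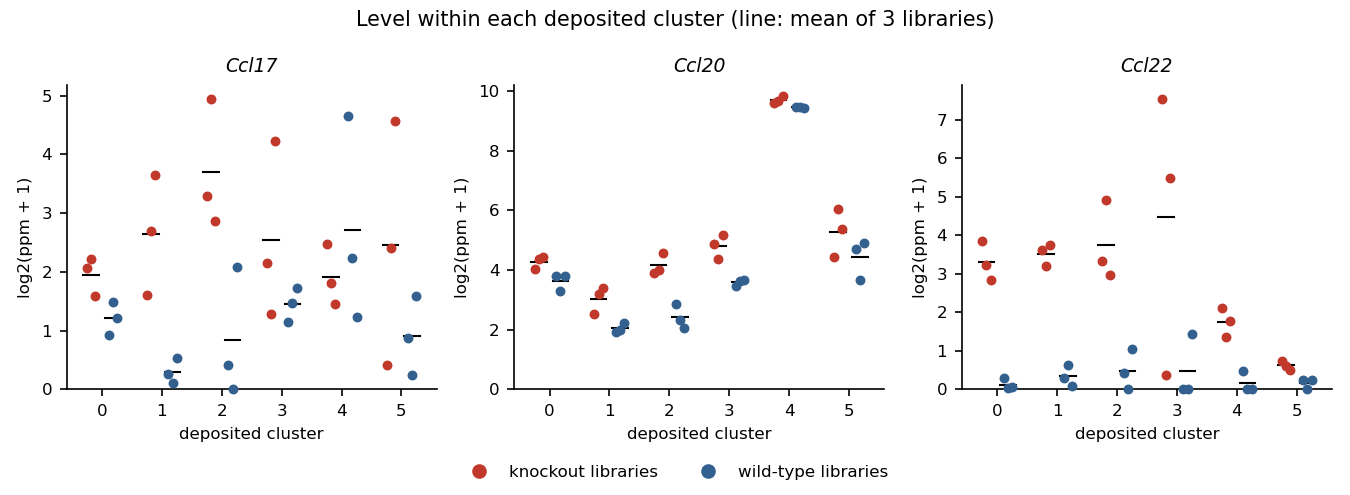
Level of each gene, as log2(ppm + 1), in deposited clusters 0 to 5, with 1 point per library and a line at the mean of 3 libraries. Ccl20 stands between 9 and 10 in cluster 4 in both genotypes, and Ccl22 in wild-type libraries stays under 2 in every cluster shown.

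Ccl17 and Ccl22 were found together in single cells more often than the product of their shares. Knockout libraries D, E and F held 17, 35 and 21 cells with at least 1 count of both, where the product gives 5.45, 4.94 and 3.42 cells. Wild-type libraries A, B and C held 2, 0 and 3 such cells, where it gives 0.378, 0.1 and 0.292. The ratio of the summed counts was 5.28 in knockout and 6.50 in wild-type libraries, the second from 5 cells. Still, most cells with one of these genes lacked the other: of 465 knockout cells with Ccl22, 15.7% held Ccl17, and of 419 with Ccl17, 17.4% held Ccl22. Without cells holding a dendritic cell marker, the knockout libraries together held 46 such cells where 10.7 were given by the product, a ratio of 4.28.

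At a minimum of 1 count, cells with both Ccl20 and Ccl22 were close in number to the product of the shares. Cells with both numbered 40, 31 and 53 in D, E and F, where the product gives 36.5, 42.3 and 47.2, and 6, 0 and 2 in A, B and C, where it gives 3.65, 1.2 and 2.13. The ratio was 0.984 in knockout and 1.15 in wild-type libraries. At a minimum of 3 counts it was 0.593 in knockout libraries, from 10 cells where the product gives 16.9. Ccl17 and Ccl20 together were found in 43, 53 and 48 knockout cells, where the product gives 27.3, 45.8 and 41.1, and in 25, 15 and 17 wild-type cells, where it gives 8.62, 5.15 and 11.1. With the product taken within each cluster, that pair's ratio was 1.11 in knockout and 1.26 in wild-type libraries, against 1.26 and 2.30 without clusters. Between genotypes an exact two-sided permutation test over libraries, which cannot go below 0.1, gave p = 0.2 for the ratio of Ccl17 with Ccl20, 1 for Ccl17 with Ccl22 and 0.8 for Ccl20 with Ccl22. At a minimum of 3 counts the ratio of Ccl17 with Ccl20 was 0.783 to 1.99 in knockout and 3.09 to 8.30 in wild-type libraries, without overlap (exact permutation p = 0.1), from 18 and 10 cells. All 3 genes were found together in 6, 8 and 8 cells of D, E and F and in 1, 0 and 1 cells of A, B and C. Cells share their library and deeper cells hold more genes, and these ratios are a description with no p over cells.

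**Figure D4:**
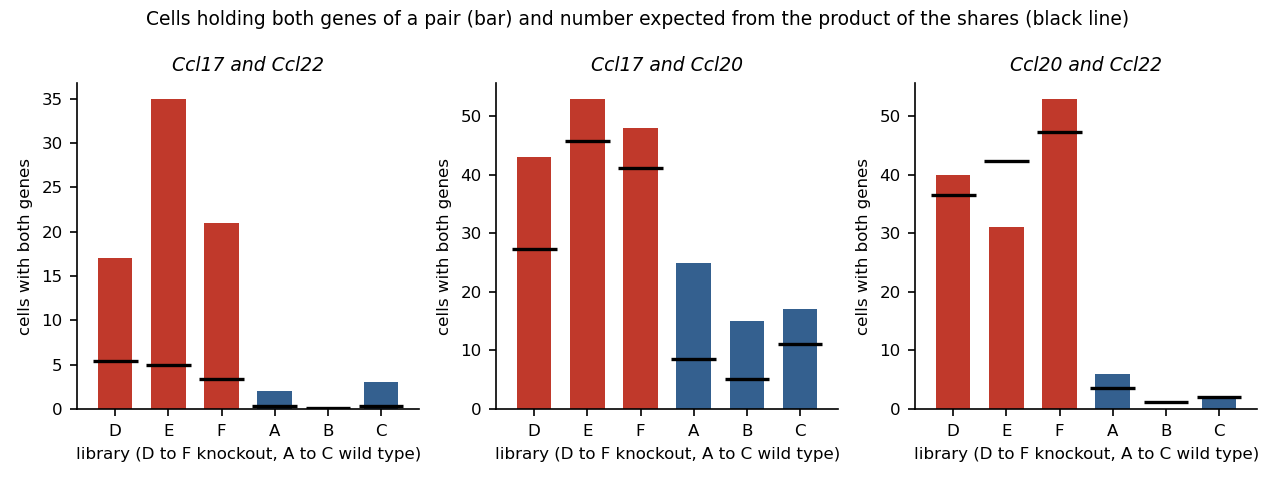
Number of cells with at least 1 corrected count of both genes of a pair in each library (bars), and the number given by the product of the shares (black lines). In the panel of Ccl17 with Ccl22 the knockout bars, at 17, 35 and 21 cells, stand above lines at 3.42 to 5.45.

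Within knockout libraries, the cells with Ccl22 differed from the cells at 0 of it in a limited set of genes. In a fit with the library as a block, 315 of 8567 genes were higher in the 465 cells with Ccl22 (3.68%) and 80 lower (0.934%) at a limma adjusted p under 0.05. Ccl17 led with 20.5, 145 and 167 ppm in cells with Ccl22 of D, E and F, against 3.18, 2.67 and 2.33 ppm in cells without (log2 difference 4.44, SE 0.44, limma adjusted p = 0.000112). Next by size were H2-Aa (3.57), a chain of MHC class II, the chemokine gene Ccl5 (3.42), Fscn1 (3.35), an actin bundler of mature dendritic cells, and Il4i1 (3.14), an amino acid oxidase. Csf2 was 152, 112 and 132 ppm in cells with Ccl22 of D, E and F, against 32.6, 12.7 and 13.8 ppm in cells without (2.80, SE 0.14, limma adjusted p = 2.38e-07). Cd40 (2.50), a costimulatory receptor, Idi2 (2.33), an enzyme of isoprenoid synthesis, H2-Eb1 (2.18), another MHC class II chain, and Gzmb (2.17), the gene of granzyme B, followed. Of these 10 genes all but Csf2 and Gzmb stood under 5 ppm in cells at 0 of Ccl22, so they reached the minimum mean only through the cells with it; this touches the count of higher genes here and in the fits for Ccl17 and Ccl20. The median raw depth was 37760 to 43866 UMIs in cells with Ccl22 and 35518 to 39538 in cells without.

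Without cells holding a dendritic cell marker, 170 genes were higher and 27 lower in cells with Ccl22. Csf2 (2.68), Gzmb (2.14), Idi2 (2.24), Il4i1 (2.54) and Cd40 (1.96) were among the higher ones, and Ccl17 was still higher at 2.15 (limma adjusted p = 0.0263). Genes lower in cells with Ccl22 moved less: Nt5e, which encodes the ectoenzyme CD73, by -0.66, the aryl hydrocarbon receptor gene Ahr by -0.50, the sulfotransferase gene Chst2 by -0.48, and Pacsin1 and Hook1 by -0.46 and -0.45. Ahr and Pacsin1 did not pass without the marker cells (limma adjusted p = 0.121 and 0.215), and among cells within 20% of the median raw depth Gzmb (0.65), Ahr, Chst2, Pacsin1 and Hook1 did not pass (limma adjusted p = 0.125, 0.376, 0.0783, 0.329 and 0.375). Ccl20 did not pass (-0.17, SE 0.17, limma adjusted p = 0.674), and without library E it was higher by 0.23 (limma adjusted p = 0.00353). The receptor genes Ccr4 (0.04, limma adjusted p = 0.668) and Ccr6 (-0.43, limma adjusted p = 0.0899) did not pass, the second with a call without library D (-0.69, limma adjusted p = 0.00104), nor did Cblb (0.06, limma adjusted p = 0.752). Il9, the Th9 cytokine gene, was 1017, 759 and 955 ppm in cells with Ccl22, against 910, 452 and 783 ppm in cells without (0.40, SE 0.08, limma adjusted p = 0.011); it did not pass when weighted to the same clusters (0.12, limma adjusted p = 0.336) or without the marker cells (0.098, limma adjusted p = 0.417). In wild-type libraries 10 to 25 cells held Ccl22, too few for this fit.

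**Figure D5:**
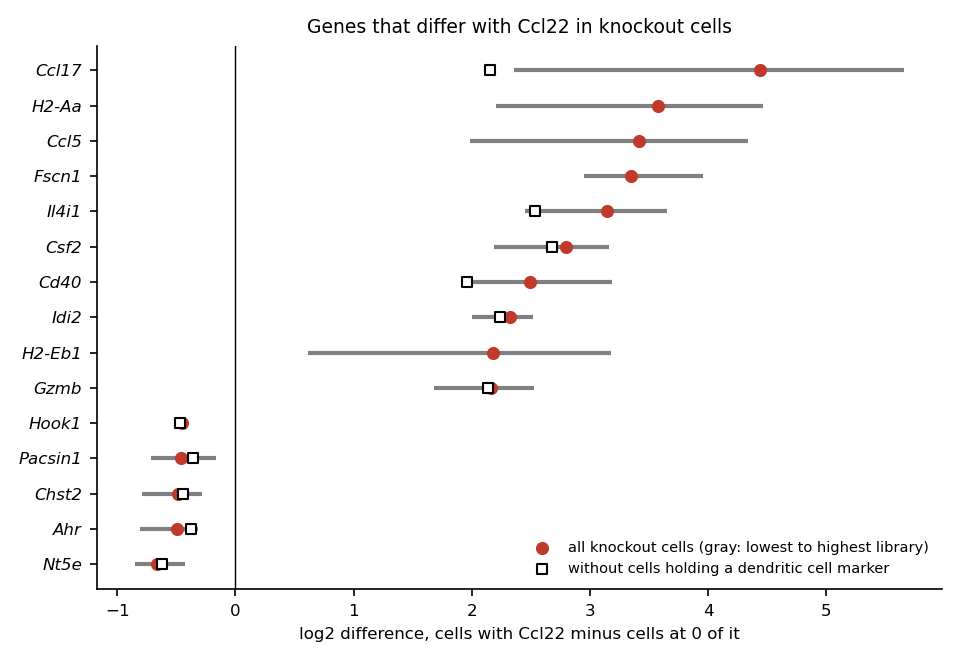
The 10 genes with the largest rise and the 5 with the largest fall in knockout cells with Ccl22 against knockout cells at 0 of it, as log2 differences; red points are all cells, gray bars the lowest to highest library, and open squares leave out cells holding a dendritic cell marker. Ccl17 stands at 4.44 over all cells and at 2.15 in the open square, and Csf2 at 2.80 and 2.68.

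Cells with Ccl17 were described in the same way in both genotypes. In knockout libraries 442 of 8605 genes were higher (5.14%) and 165 lower (1.92%) in the 419 cells with Ccl17. Ccl22 led with 120, 189 and 167 ppm in cells with Ccl17 of D, E and F, against 10.7, 3.86 and 4.12 ppm in cells without (4.56, SE 0.22, limma adjusted p = 1.27e-09). Ccl5 (3.18), H2-Aa (3.03), Fscn1 (2.89), Il4i1 (2.83), Csf2 (2.64), Cd40 (2.11), Il13 (2.06), H2-Eb1 (1.97) and Cd79b (1.80), a B cell receptor chain, followed. Ccl5, H2-Aa, Fscn1, Il4i1, Cd40 and H2-Eb1 averaged under 5 ppm in cells at 0 of Ccl17. They reached the minimum mean only through the cells with Ccl17. Il13 was 336, 60.7 and 365 ppm in cells with Ccl17, against 132, 13.4 and 54.4 ppm in cells without. Without cells holding a dendritic cell marker, Ccl22 (3.50), Csf2 (2.62), Il13 (2.11), Il4i1 (2.07), Cd40 (1.38) and Cd79b (1.38) still passed as higher. Ccl5, H2-Aa, Fscn1 and H2-Eb1 had no value in that fit. The genes lower in cells with Ccl17 were Myo6 (-1.43), Maf (-0.86), a type 2 transcription factor, Gbp2 (-0.73), Chchd10 (-0.62) and Tnip3 (-0.53), the last lost without library D or F and among cells within 20% of the median raw depth, where only D and E could be used.

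In wild-type libraries fewer cells held Ccl17. Libraries A and C had enough for the fit (59 and 83), and 203 of 8421 genes were higher (2.41%) and 83 lower (0.986%) in cells with Ccl17. Ccl1 (3.17), a chemokine of the CCR8 receptor, Penk (2.50), the gene of an opioid precursor, and Il13 (2.37) led. Ccl1 was 124 and 16.4 ppm in cells with Ccl17 of A and C, against 3.62 and 4.82 ppm in cells without. Penk was 35.1 and 49.2 ppm, against 8.27 and 5.14 ppm, and Il13 5.34 and 21.5 ppm, against 2.05 and 0.747 ppm. In library B, which had too few cells for the fit, cells with Ccl17 held 3.04 ppm of Ccl1, 0.608 of Penk and 0.608 of Il13, against 2.83, 4.74 and 1.87 ppm in cells without, so Penk and Il13 were not higher there. Next was Ccl20, which was 193 and 87.4 ppm in cells with Ccl17 of A and C, against 30.6 and 25.5 ppm in cells without (2.18, SE 0.13, limma adjusted p = 2.9e-10). With the cells without Ccl17 weighted to the same clusters, the log2 difference of Ccl20 was 0.15 in knockout libraries, where it did not pass (limma adjusted p = 0.578, against 0.78 and 1.98e-05 without weights), and 0.41 in wild-type libraries, where it did (limma adjusted p = 0.00115). Il1a (1.61), Tnfrsf13c (1.73), Cd70 (1.53), Car2 (1.83), Wisp1 (1.62) and Cd5l (1.53) were also higher. Ccl1, Il13, Il1a, Tnfrsf13c, Cd70, Car2 and Wisp1 averaged under 5 ppm in cells at 0 of Ccl17. They reached the minimum mean only through the cells with Ccl17. Myo6 (-1.41), Fam46a (-0.94), Igfbp4 (-0.93), Rragd (-0.95) and Foxp3 (-0.95), which defines regulatory T cells, were lower; weighted to the same clusters Foxp3 and Rragd did not pass (-0.42 and -0.56). Whether the companions of Ccl17 differ between genotypes was not tested.

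Cells rich in Ccl20 held more Il2 and Ccr6 and less Il9 than cells at 0 of it, in both genotypes. The 939 knockout and 368 wild-type cells with at least 10 counts of Ccl20 lay mostly in cluster 4 (812 and 321), so values weighted to the same clusters are given for Il2, Il9, Ccr6 and Ccl3; the other differences are unweighted. In knockout libraries 1788 of 8558 genes were higher (20.9%) and 976 lower (11.4%), and in wild-type libraries 1616 of 8467 were higher (19.1%) and 744 lower (8.79%). Il2, the T cell growth factor gene, was 1193, 1310 and 1723 ppm in Ccl20-rich cells of D, E and F, against 333, 313 and 441 ppm in cells at 0 of Ccl20 (1.95, weighted 1.74), and in wild-type cells it was higher by 1.83 (weighted 1.51). Il9 was lower, with 254, 112 and 212 ppm in Ccl20-rich cells of D, E and F, against 1019, 535 and 890 ppm in cells at 0 of Ccl20 (-2.10, weighted -2.90). In wild-type libraries A, B and C Il9 was 130, 32.4 and 16.8 ppm, against 290, 175 and 266 ppm (-2.48, weighted -2.85). Limma's adjusted p was at most 4.65e-13 for these 4 plain differences.

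Ccr6, the receptor gene of CCL20, was higher in the cells that hold its ligand. It was 49.7, 39.0 and 34.0 ppm in Ccl20-rich cells of D, E and F, against 21.7, 21.6 and 15.2 ppm in cells at 0 of Ccl20 (1.03, weighted 1.08, SE 0.06, limma adjusted p = 1.12e-08), and higher by 1.05 in wild-type libraries (weighted 1.03, SE 0.08, limma adjusted p = 5.82e-14). Il17a, the Th17 cytokine gene, was 28.1, 4.30 and 8.49 ppm in Ccl20-rich cells, against 0.0199, 0.00633 and 0.286 ppm in cells at 0 of Ccl20, in knockout libraries (3.37), and reached the minimum mean of 5 ppm only through the Ccl20-rich cells. The chemokine gene Ccl3 (2.01, weighted 1.24), the secreted factors Edn1 (1.68), Igfbp7 (1.86) and Cyr61 (1.69), Pou2af1 (1.77), Cib2 (2.12), Pxdc1 (2.21) and Cacnb2 (1.68) were also higher, and Ikzf4 (-1.82), Sgk1 (-1.81), Socs2 (-1.67) and Gpr146 (-1.61) lower. Cyr61, Pou2af1, Cib2, Pxdc1 and Cacnb2 averaged under 5 ppm in cells at 0 of Ccl20, so they too reached the minimum only through the Ccl20-rich cells. Sgk1 and Gpr146 reached it only through the cells at 0. In wild-type libraries Cib2 (2.38), Mpzl2 (2.24), Ccl17 (2.10), Cd70 (2.07), Cd5l (1.98), Kcnk10 (1.93), Dsp (1.90), Csf1 (1.81) and Igfbp7 (1.80) were higher and Batf3 (-2.26), Foxp3 (-2.18), Socs2 (-2.01) and Pkib (-2.00) lower. Of these, Cib2, Mpzl2, Ccl17, Cd70, Kcnk10 and Dsp reached the minimum only through the Ccl20-rich cells, and Foxp3 and Pkib only through the cells at 0. The Ccl17 value was uneven, with 24.6, 3.93 and 1.64 ppm in Ccl20-rich cells of A, B and C. Cells at 0 of Ccl20 held 0.481, 0.347 and 1.11 ppm of it. In library A, 1 Ccl20-rich cell held 95 counts of Ccl17 and 32 of Ccl20. Ccl22 was lower in Ccl20-rich knockout cells, at 3.61, 3.21 and 4.77 ppm, against 12.0, 10.4 and 9.26 ppm in cells at 0 of Ccl20 (-1.25, SE 0.12, limma adjusted p = 1.11e-06), and did not pass among cells within 20% of the median raw depth (-1.01, limma adjusted p = 0.0883).

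Over the 36 profiles of 6 libraries by 6 clusters, the 5 genes most like each chemokine shared no member. For Ccl20 they included Oxsr1, a stress-response kinase gene (Pearson r of log2(ppm + 1) 0.880), Daam1 (0.841), Cd84 (0.835) and Cd37 (0.824), each above 0.77 in either genotype alone. For Ccl22 they were Serpinb9 (0.860), which encodes an inhibitor of granzyme B, Pcgf5 (0.821), Csf2 (0.804), Sik1 (0.804) and Lactb (0.801); among the 18 wild-type profiles alone Serpinb9 stood at -0.0246, where Ccl22 was near 0. For Ccl17 they were Cop1 (0.690), Zfp296 (0.668), Mcl1 (0.648), Basp1 (0.636) and Rab34 (0.622). Ccl17 with Ccl22 gave 0.526 over all profiles, and 0.340 in knockout and 0.232 in wild-type profiles alone. Ccl17 with Ccl20 gave 0.311 over all, and -0.175 in knockout and 0.662 in wild-type profiles. Ccl20 with Ccl22 gave -0.034 over all, and -0.338 in knockout and -0.203 in wild-type profiles. The profiles share libraries and clusters, so these values describe likeness only.

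Of the 3 receptor genes 1 passed between genotypes over all cells, where 24.4% of all genes passed, 11% as higher and 13.4% as lower. Ccr4, the receptor of CCL17 and CCL22, was 84.0, 89.8 and 95.6 ppm in knockout libraries D, E and F, against 78.8, 78.2 and 85.5 ppm in wild-type libraries A, B and C (0.15, limma adjusted p = 0.102). Ccr6 was 25.0, 24.8 and 17.8 ppm, against 31.7, 27.1 and 28.6 ppm, lower in every knockout library, and did not pass (-0.37, limma adjusted p = 0.0685). Ccr8 was 17.95, 13.8 and 15.7 ppm, against 13.1, 11.2 and 11.5 ppm, and rose (0.38, SE 0.10, limma adjusted p = 0.0287), a call lost without library B, C, D or F. Of 4 chemokine receptors that could be tested, Ccr7, the lymph node homing receptor, also rose (0.50, limma adjusted p = 0.00169). Among the 16 other chemokine genes in the table, 4 could be tested at 5 ppm, 0 rose and Ccl4 fell, to 60.4, 80.9 and 70.2 ppm in knockout, against 125, 123 and 111 ppm in wild-type libraries (-0.76, SE 0.10, limma adjusted p = 0.00283). Ccl24 was at 0.00765, 1.82 and 1.84 ppm in D, E and F and Pf4 at 0.245, 1.84 and 0.948 ppm, and both were listed at 0 in all wild-type libraries.

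Of 25 NF-kB subunits, regulators and feedback genes, 11 rose and 1 fell in knockout libraries, with a median log2 difference of 0.21, beside -0.01 over all genes tested and 11% of them higher. Traf1 (0.90), Bcl3 (0.82), Nfkb2 (0.76), Nfkbia (0.55) and Tnfaip3 (0.46), targets or feedback regulators of the pathway, had the largest changes. Without library A, B or C the number that rose was 7, 6 and 6. Of 16 tested genes of the IL-4 and STAT6 pathway and response, 10 rose and 0 fell, with a median of 0.31. Il13 (4.28), Socs3 (1.44) and Socs1 (0.76), feedback inhibitors of cytokine signals, Gfi1 (0.92) and Batf (0.81) had the largest changes, Stat6 rose by 0.25, and the receptor gene Il4ra did not pass (-0.04, limma adjusted p = 0.762). Il13 and Socs3, at wild-type means of 1.69 and 2.07 ppm, reached the minimum mean of 5 ppm only through their knockout levels. Both are among the 10 counted as risen. Without library A, B or C the number that rose was 6, 5 and 5. Adjusted p-values of the genes named as changed in these 2 lists were at most 0.0271 in limma.

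Of 12 tested Th17 genes 4 rose and 2 fell, with a median of -0.08, beside 11% of all genes higher and 13.4% lower. Rora (0.82), Batf (0.81), Stat3 (0.71) and Il21r (0.70) rose, and Ahr (-0.80) and Il6ra (-0.32) fell. Of 12 genes of TGF-beta receptors, Smads and feedback, Tgfb1 rose (0.26) and Tgfbr1 (-0.62) and Smad2 (-0.31) fell, with a median of 0.02, counts near those shares of all genes. Without library A, B or C, 0 of the Th17 genes fell, and of the TGF-beta genes 0 rose and 1 fell. Few genes beside the chemokines on the chromosome could be tested. Within 250 kb of Ccl20 1 of 5 genes in the table could be tested, Agfg1, which did not pass (-0.11, limma adjusted p = 0.107). Within 250 kb of Ccl17 and Ccl22 6 of 15 could be tested, and 0 rose, beside the same 11% and 13.4% of all genes. Arl2bp (-0.22), Coq9 (-0.21) and Fam192a (-0.13) fell; 1 gene passed as lower under each of 2 other scalings and 0 without library A, B, D or F. Cx3cl1, the chemokine gene between Ccl22 and Ccl17, stood at 0.314, 0.335 and 0.155 ppm in D, E and F, against 0.0269, 0.0427 and 0.0578 ppm in A, B and C.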

How the data were processed

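Single-cell RNA of 6 libraries was captured with a 3' droplet kit. The deposited expression values, treated here as a score, are whole-number counts that the authors corrected with sctransform, per the file headers; they are not raw, so no count model was used. The deposited raw count of UMIs per cell and the percent of UMIs from mitochondrial genes came with the authors' cluster numbers, per the file headers. Cell Ranger 3.0.2, Seurat 3.0.0 and mm10 are named in the submitters' processing notes, with no settings.

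Corrected counts were summed per library, and per library and cluster, and scaled to ppm. Genes averaging at least 5 ppm were tested as log2(ppm + 1) with limma 3.58.1 in R 4.3.3 (trended variance prior, two-sided, Benjamini-Hochberg at 0.05); genes below it come from a fit with a minimum of 0.1 ppm and a pseudocount of 0.1. A log2 difference on this scale understates low genes. Cells with a gene (at least 1 count, 10 for Ccl20) were compared with cells at 0 of it, the library as a block, in libraries with at least 50 such cells. Named genes are the 10 highest and 5 lowest by log2 difference among those passing with every library moving one way, up to 5 per list, the members, the receptors, Cblb and Il9; Il6ra, Stat6, Il4ra, Agfg1, Ccl24, Pf4 and Cx3cl1 were chosen after their values were seen. Some genes are not reported here. Other tests used scipy 1.17.1. The fits were tested on simulated data. The members, lists and tests were chosen with earlier results of these data known. Columns name libraries by an index letter and genotype. Intervals and floors cover counting error only.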

Additional observations from a re-analysis of the deposited data

How the results depend on the processing

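The 3 members kept their direction and passed over all cells under every setting that gave a value; Ccl22 gave none in the 5 ppm fit where its mean fell below that minimum. No paired analysis was possible because the columns carry an index letter and no replicate number. Genes higher in knockout numbered 929, and 396 to 1750 with 1 library left out, 1635 at a minimum of 0.1 ppm and 1433 with no minimum; genes lower numbered 1139, and 381 to 1396 with 1 library left out. Leaving out 1 library leaves fewer samples; for other changes the cause was not tested.

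With 1 library left out, Ccl20 ranged from 0.49 to 0.77 in cluster 0, 0.82 to 1.25 in cluster 1, 0.19 to 0.29 in cluster 4 and 0.46 to 1.28 in cluster 5, Ccl22 from 2.45 to 6.04 in cluster 3, and Ccl17 from -1.54 to 0.18 in cluster 4 and 0.50 to 2.58 in cluster 5. The share of cells, knockout minus wild type, was 0.552 and 0.281 percentage points for Ccl17 at minimums of 3 and 10 counts, 6.11 and 3.53 for Ccl20, and 0.922 and 0.577 for Ccl22, a stricter count by construction. Co-detection at a minimum of 3 was 30.9 times the product for Ccl17 with Ccl22 and 0.593 for Ccl20 with Ccl22.

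Among cells within 20% of the median raw depth, which are fewer, Ccl20 in cluster 5 was -0.54 and co-detection of Ccl20 with Ccl22 0.754. Genes higher and lower were then 245 and 103 in knockout cells with Ccl17, 126 and 33 in those with Ccl22, and 647 and 379 in Ccl20-rich wild-type cells; 974 were higher in Ccl20-rich knockout cells. In this range the fit for Ccl17 in knockout left out library F, with 48 such cells. That for Ccl20 in wild type left out library B, with 44. Weighted to the same clusters, 104 were lower in knockout cells with Ccl17, and 87 higher and 30 lower in wild-type cells with Ccl17. Without dendritic cell marker cells, a step chosen after seeing the data, 170 were higher and 27 lower in knockout cells with Ccl22, and 126 lower in wild-type cells with Ccl17. Lower genes ranged from 109 to 119 with 1 library left out in knockout cells with Ccl17 and from 35 to 135 in those with Ccl22.

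Some differences changed sign, passed ones among them: in knockout cells with Ccl17, Il9 was 0.26 (limma adjusted p = 0.0209) over all cells and -0.27 (3.23e-08) in the depth range, and Ccl20 was 0.78 (1.98e-05) and -0.21 (0.316). The depth-range values of these cells come from libraries D and E alone, so the set of libraries changed as well. In the test between clusters, Ccl20 was 0.0176 in cluster 0 in the depth range, -0.20 in cluster 1 and 0.10 in cluster 5 at a pseudocount of 10, and with 1 library left out -0.088 to 0.17 in cluster 1 and -0.55 to 0.21 in cluster 5; Ccl22 in cluster 2 was -0.32 to 1.39 and Ccl17 in cluster 5 -0.65 to 1.21. In the depth range, knockout cells with Ccl17 stood at -0.0576 for Ccr4 and 0.0016 for Cblb, those with Ccl22 at -0.20 for Il9 and -0.0116 for Cblb, Ccl20-rich knockout cells at -0.10 for Ccr8 and Ccl20-rich wild-type cells at -0.0413 for Ccr4. Weighted, Ccr4 was -0.0234 in wild-type cells with Ccl17 and Ccl20 0.0211 in knockout cells with Ccl22, where it was -0.43 to 0.23 with 1 library left out; Ccr8 in Ccl20-rich knockout cells was -0.0013 to 0.17.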
